A study of Triticum aestivum with 18 samples.

Results

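In root apices of the wheat-rye addition line 3R, 26 of 45220 probe rows of an expression array lay above every sample of wheat cultivar Chinese Spring (CS) and of the addition line 6R. They were chosen by their measured values: after quantile normalisation across all 18 samples, the lowest of the 6 samples of 3R had to exceed the highest of the 12 samples of CS and 6R, and the 3R mean had to exceed the mean of each other line by 1 or more on the log2 scale. The share meeting this rule was 0.0575% of all rows. The difference in level between 3R and the other lines is therefore a description with no test, and what was tested is the response of the 26 probes to aluminium (Al) and the difference between 6R and CS.

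CS is Triticum aestivum, bread wheat. The lines 3R and 6R carry the complete wheat genome and, in addition, a pair of chromosomes 3R or 6R of rye (Secale cereale). Seedlings of each line were kept for 24 h in nutrient solution of pH 4.0 with 200 µM AlCl3 or in the same solution without it, and root apices were taken at an age of 5 days. Each of the 6 groups held 3 samples, named biological replicates in the labels, each a pool of 9 root tips. Each of the 9 arrays held both samples of a replicate, Al in one dye and control in the other (Cy3 and Hyper 5), with the dyes swapped on 1 of 3 arrays of a line.

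Wheat keeps related chromosomes in sets, so that many, though not all, genes of a rye chromosome have counterparts on the wheat chromosomes of the same number. An array probe designed on a wheat transcript can also bind a similar rye transcript, so a higher signal in an addition line can come from wheat copies, from rye copies or from a related gene, and these cannot be told apart here. Rye is known for its tolerance of Al, which in acid soils stops root growth at the apex, and loci for tolerance are known on 3R and on 6R.

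The platform annotation gave 2 of the 26 probes a gene symbol, 7.69%, against 2.20% of all rows (996 rows). Probe 8710 belongs to LOC543421 (array accession BQ842204) and probe 12995 to LOC100136989 (accession EU220225). The gene table of the wheat assembly GCF_018294505.1 lists both as protein-coding genes on chromosome 3D and gives no other name or function. Chromosomes could be looked up for 951 annotated rows. Of these, 95 (9.99%) lie on the wheat chromosomes of homoeologous group 3, which share the number of 3R, and 34 (3.58%) on 3D. Over these 95 rows the median difference between 3R and the mean of CS and 6R was -0.01 (quartiles -0.30 and 0.25), against medians of 0.00 to 0.08 in the other groups. With 2 placed members the positions are a description, and the other 24 probes are known here by their number alone. Their sequences were not used here.

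LOC543421 read 8.02, 8.42 and 8.39 in the control samples of 3R and 7.48, 7.71 and 7.51 in its Al samples (log2 intensity, replicates 1 to 3). In CS the values were 6.45, 6.36 and 6.76 without Al and 6.46, 6.59 and 6.54 with it, and in 6R they were 6.35, 6.55 and 6.77 without and 6.58, 6.54 and 6.47 with it. The 3R samples stood 2.63-fold above CS and 2.60-fold above 6R on average, and within 3R the Al samples all lay below the control samples. A second probe of LOC543421 from the same accession, 34873, did not meet the rule. It averaged 7.29 in 3R, 6.65 in CS and 6.48 in 6R, a margin of 0.64, and its 3R samples (6.72 to 8.08) overlapped those of CS (6.42 to 7.01) and 6R (6.15 to 6.92). Both probes were thus higher on average in 3R, and the separation of the samples held for 8710 alone of the pair.

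LOC100136989 read 8.79, 8.18 and 8.17 in 3R without Al and 8.60, 8.32 and 7.92 with it. Its CS samples ranged from 6.75 to 7.38 and its 6R samples from 6.75 to 7.66, so that the lowest 3R sample lay 0.27 above the highest other sample. The mean of 3R was 2.25-fold that of CS and 2.37-fold that of 6R.

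Among the 26 probes the margin, the 3R mean minus the higher of the CS and 6R means, ran from 1.05 to 2.77 with a median of 1.34, which is 2.07-fold to 6.82-fold on the linear scale. The gap between the lowest 3R sample and the highest other sample ran from 0.03 to 2.14 (median 0.36). Mean levels in 3R ran from 7.10 to 11.96, where the deposited values run from 5.62 to 15.73. The deposited values end at a floor near 5.62, and means under 6.3 were counted as near it, where differences are compressed. By their level in the other lines, 5 probes were near that floor in CS and in 6R (19.2%, against 36.4% of all rows), and 10 had means of 8 or more in both. The other 11 form a middle group. Of these, 12133 and 35232 were near the floor in CS (means of 6.05 and 6.08) but not in 6R (6.60 and 6.31).

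Probe 25251 had the largest measured margin, although that of 554 (2.56) is measured from the floor and may be understated. Its 3R samples read 9.94, 9.53 and 10.59 without Al and 9.75, 10.90 and 10.44 with it. In CS they read 7.60, 6.66 and 7.10 without and 7.36, 8.19 and 7.61 with Al, and in 6R 6.65, 7.16 and 7.22 without and 7.59, 7.84 and 7.45 with Al. The mean of 3R was 6.82-fold that of CS and 7.34-fold that of 6R, and the probe read above 6.3 in every sample of all lines.

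Probe 554 was the clearest case of a signal near the floor outside 3R. It read 8.87, 8.41 and 8.92 in the control samples and 8.30, 8.91 and 8.39 in the Al samples of 3R. All CS samples lay between 5.90 and 6.12 and all 6R samples between 6.01 and 6.16. Its 3R mean was 6.23-fold the CS mean and 5.88-fold the 6R mean, sizes that are not exact because the reference values sit at the floor. The other probes near the floor in CS and 6R were 14179, 21164, 1574 and 23216, with 3R means of 7.76, 7.37, 7.46 and 7.10.

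Probe 4418 read 9.56, 9.83 and 10.34 without and 8.99, 9.56 and 9.94 with Al in 3R, and its 12 other samples ranged from 6.99 to 8.05. Its margin was 1.99 (3.98-fold). Of the next probes by margin, 34997 stood at 1.91, 6178 at 1.82, 12579 at 1.70, 42878 at 1.65, 29913 at 1.59 and 14179 at 1.55. The brightest, 31779 (margin 1.47), averaged 11.96 in 3R, 10.39 in CS and 10.49 in 6R. Among the bright members, 12579 ranged from 9.53 to 10.93 in 3R, from 8.03 to 9.13 in CS and from 7.48 to 8.93 in 6R. Probe 42878 ranged from 10.42 to 12.01 in 3R against 8.48 to 10.11 in CS and 8.66 to 10.33 in 6R, so that the gap was 0.09. Probes 6845 and 22633 averaged 11.72 and 11.42 in 3R and above 10 in both other lines.

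Of the middle group, 29913 ranged from 7.62 to 9.50 in 3R and reached 7.04 in CS and 7.02 in 6R. Probe 23003 averaged 9.09 in 3R, 7.61 in CS and 7.76 in 6R, and 11371 averaged 8.68, 7.43 and 7.35. Probe 1987 averaged 7.82 in 3R, 6.57 in CS and 6.69 in 6R. Most of these probes thus had a signal in every line and a higher one in 3R. Close to the floor, 14179 ranged from 7.24 to 8.33 in 3R, and its 12 other samples reached 6.45 at most. The probes just inside the threshold were 11541 (1.11), 35232 (1.08) and 23216 (1.05), and those just outside were 12556 (0.98), 39574 (0.97) and 25826 (0.97).

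Replicates 1 and 2 of both addition lines shared a slide, those of CS had a slide of their own, and replicate 3 of all lines shared the third, as read from the names of scanner files in the labels. On the third slide the 3R samples were above those of CS for 26 of 26 probes (median difference 1.65, lowest 0.53) and above those of 6R for 26 of 26 (median 1.60, lowest 0.59). On the slide with replicates 1 and 2 of 3R and 6R they were above 6R for 26 of 26 (median 1.37, lowest 0.83). The rule asked for this sign in all samples, so the within-slide values show size alone. Probe 22633 had the smallest differences on the third slide, 0.53 to CS and 0.59 to 6R.

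Over all rows, 79 probes had all 3R samples above all others, and 53 of them missed the margin of 1. Without the margin this count depended on the scaling: it was 38 on the values as deposited and 2425 with medians aligned, and the counts below the others were 490, 642 and 467 on the 3 scalings, so that with medians aligned more probes were above than below. The same rule gave 10 probes for CS and 3 for 6R. In the opposite direction 368 probes (0.814%) lay below both other lines in 3R, 10 in CS and 8 in 6R. With the margin of 1, the probes below the other lines outnumbered those above in 3R on the 3 scalings (439 below on the values as deposited and 361 with medians aligned). On the values as deposited, which differ in median between lines (7.09 in 3R, 7.33 in CS and 7.22 in 6R), 12 probes met the rule in 3R, all of them members, and 33 met it in CS. Margins of the 26 members on that scale were 0.78 to 2.48, and 19 of them kept all 3R samples above all others. Probes 34997, 42878, 9075, 23003, 11371, 22633 and 8063 overlapped with the other lines there. With medians aligned instead, 30 met it in 3R, among them all 26.

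Root tip and other tissue markers were read by symbol. All 14 beta-tubulin rows averaged above 6.3 in every group, 2 of 5 histone rows did so in each, and 24 of 29 seed protein rows were near the floor in every group. No member is in these lists. The summed signal of 23 leaf-type rows, most of them rbcL, the plastid gene of the large Rubisco subunit, was higher in the control samples of 3R (log2 15.09 to 15.49) than in those of CS (13.87 to 14.55), while 6R (14.19 to 15.37) and the Al groups overlapped with 3R. Of the leaf-type rows 1 was near the floor in each control group. The part of this difference in the levels of the 26 probes was not tested. In a bulk sample, more cells of a kind and more RNA per cell cannot be told apart.

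The first tested question was how the 26 probes respond to Al in 3R. The response is the mean log2 ratio of Al over control within the 3 arrays of a line, with a dye term, fitted with limma over all rows. The rule did not use this contrast, but it used the lowest 3R sample, so a probe with a low 3R group could miss it. The median SD within the groups of 3R was 0.33 over the members and 0.25 over all rows. In 3R 6 of 26 probes passed at an adjusted p under 0.05 (23.1%, against 14.8% of all rows): 5 fell (7.09% of all rows fell) and 1 rose (7.66% of all rows rose). All 6 had the sign of the fit in 3 of 3 arrays. No member averaged under 6.3 over all samples, while 37.6% of all rows did. With those dim rows left out, 8 of 26 members passed, and 7277 of the rows kept did, against 6672 of all rows. The share of all rows is thus lower than that of brighter rows. The median response of the 26 was -0.19, against -0.02 over all rows, with 18 below and 8 above 0.

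LOC543421 showed the largest fall in 3R, a log2 ratio of -0.67 ± 0.11 (moderated standard error, with the spread pooled over the 9 arrays, 3 arrays in 3R, 1.59-fold, limma adjusted p = 0.0057), with array ratios of -0.55, -0.71 and -0.88. In CS and 6R, where it averaged 6.53 and 6.54, its changes were 0.05 ± 0.11 and 0.01 ± 0.11. These levels are little above 6.3, so a fall of the size seen in 3R could be compressed there. The second probe of the gene, 34873, pointed the same way in 3R without passing (-0.46 ± 0.16, adjusted p = 0.11). Without 3R replicate 2 the fall of 8710 no longer passed (-0.53, adjusted p = 0.10).

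Probe 6178 read 9.19, 8.94 and 9.41 without and 8.64, 8.49 and 8.31 with Al in 3R, groups that did not overlap, and fell by 0.61 ± 0.15 (adjusted p = 0.035). It also fell in CS, by 0.51 ± 0.15 (adjusted p = 0.046), with 2 of 3 arrays down. It was the single member called in 3R and in another line. Its call in 3R was lost without 3R replicate 2 (adjusted p = 0.31), 3R replicate 3 (0.19), 6R replicate 2 (0.058) or CS replicate 3 (0.053).

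The remaining falls in 3R belonged to probes near the floor in CS and 6R. Probe 1574 read 7.23, 7.99 and 7.93 without and 6.88, 7.23 and 7.52 with Al and fell by 0.57 ± 0.07 (adjusted p = 0.0026). The groups overlapped, but each array fell. Probe 21164 fell by 0.42 ± 0.09 (adjusted p = 0.023) and 23216 by 0.31 ± 0.08 (adjusted p = 0.042). All 5 probes near the floor had a negative estimate in 3R, from -0.57 to -0.15, of which 3 passed. Their estimates in CS and 6R lay between -0.14 and 0.05, in the range where the floor compresses a change. Probe 1987 was the single riser in 3R, from 7.42, 7.55 and 7.95 to 7.48, 8.02 and 8.47 (0.39 ± 0.10, adjusted p = 0.043), with groups that overlapped. Of these calls, 1574 was lost without 3R replicate 2 (adjusted p = 0.051), 21164 without any single 3R array (0.059 to 0.11), and 23216 likewise (0.11 to 0.19) and without replicate 1 or 2 of 6R or 1 or 3 of CS (0.058 to 0.061). The rise of 1987 was lost without 3R replicate 2 or 3 (0.22 and 0.21), 6R replicate 1 or 2 (0.066 and 0.050) and CS replicate 1 or 3 (0.052 and 0.068).

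The brightest probe, 31779, stood higher in each Al sample of 3R (12.98, 12.33 and 11.96) than in any control sample (11.62, 11.33 and 11.55), and did not pass (0.98 ± 0.30, adjusted p = 0.069). The call of 6 in 3R was 2 without 3R replicate 3 and 3 without 6R replicate 2. It was 1 without the dye term. Over all rows the calls in 3R were 6672, and 2979, 6091 and 1659 in these settings. Without 3R replicate 2 none of the 6 passed, and the 4 members called there were others, with 1883 calls over all rows.

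In CS 6 of 26 probes passed (23.1%, against 22.7% of all rows): 4 fell (11.2% of all rows did) and 2 rose (11.5%). In 6R 6 passed (23.1%, against 27.0% of all rows): 5 fell (13.3% of all rows did) and 1 rose (13.7%). These shares are near those of the whole table, which includes the dim rows. With dim rows left out, 6 members passed in CS and 6 in 6R. Of the rows kept, 10714 and 12683 passed, against 10279 and 12227 of all rows. Brighter rows were thus called more often than the shares of all rows show. Of the calls in the main fit, 4 of 6 in CS and 5 of 6 in 6R had the sign of the fit in 3 of 3 arrays. Altogether 14 of 26 passed in at least 1 line, 4 in 2 lines and 0 in all 3, and 12 passed in no line. The same counts over all rows are not given here, so these have no share to be read against.

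Probe 34997 fell in both other lines. It read 9.55, 9.15 and 9.14 in the control and 7.88, 8.56 and 7.79 in the Al samples of CS, a fall by 1.13 ± 0.25 (2.19-fold, adjusted p = 0.015). In 6R it went from 8.53, 9.91 and 9.88 to 7.69, 7.97 and 7.85, a fall by 1.53 ± 0.25 (2.88-fold, adjusted p = 0.0034). In 3R the control samples read 10.89, 10.50 and 10.54 and the Al samples 11.00, 9.94 and 10.64, a change of -0.04 ± 0.25 (adjusted p = 0.95). Its groups overlapped in 3R and did not in CS or 6R. The call in CS was lost without CS replicate 1 (adjusted p = 0.073) and without CS replicate 3 (adjusted p = 0.069).

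Probe 8063 fell in CS, from 9.44, 9.26 and 8.81 to 8.43, 8.04 and 7.23 (by 1.30 ± 0.26, 2.47-fold, adjusted p = 0.0087, and adjusted p = 0.058 without CS replicate 3). In 3R it went from 10.05, 9.89 and 9.63 to 10.80, 10.25 and 9.74, up in 3 of 3 arrays without passing (0.37 ± 0.26, adjusted p = 0.45). In 6R it changed by -0.29 ± 0.26 (adjusted p = 0.53), with 2 of 3 arrays down.

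Probe 9075 fell in CS by 0.76 ± 0.15 (adjusted p = 0.0075) and in 6R by 0.52 ± 0.15 (adjusted p = 0.032), and in 3R it stood at -0.48 ± 0.15 (adjusted p = 0.067). All 9 arrays were down. Probe 23003 fell in 6R by 1.10 ± 0.22 (adjusted p = 0.0081) and 6845 by 0.94 ± 0.18 (adjusted p = 0.0057). The latter changed by 0.03 ± 0.18 in CS and 0.07 ± 0.18 in 3R, and its 6R samples went from 10.77, 11.04 and 10.80 to 10.09, 10.20 and 9.54. The call of 9075 in 6R was lost without 6R replicate 1 (adjusted p = 0.34), 6R replicate 2 (0.13) or 3R replicate 2 (0.057).

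Rises were fewer. Probe 25251 rose in 6R by 0.80 ± 0.20 (adjusted p = 0.021) and in CS by 0.79 ± 0.20 (adjusted p = 0.026, with 2 of 3 arrays up). In 3R it stood at 0.53 ± 0.20 without passing (adjusted p = 0.13). LOC100136989 rose in CS by 0.34 ± 0.08 (1.26-fold, adjusted p = 0.021) and did not pass in 6R (0.18 ± 0.08) or 3R (-0.05 ± 0.08). The rise of LOC100136989 was lost without CS replicate 2 (adjusted p = 0.22) or CS replicate 3 (0.099), and that of 25251 in 6R without 6R replicate 2 (0.10) or 6R replicate 3 (0.061). The count of 6 in CS was 1 without CS replicate 3, where the calls over all rows went from 10279 to 6700.

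The responses of 3R and CS were then compared directly. No member passed for 3R minus CS (0 of 26, against 1.84% of all rows in limma, with 10 of 26, or 38.5%, at an unadjusted p under 0.05 against 10.6% of all rows) or for 3R minus 6R (0 of 26, against 1.08% of all rows, with 12 of 26, or 46.2%, at an unadjusted p under 0.05 against 10.9% of all rows). These 2 comparisons share the 3R arrays. The differences of smallest p between 3R and CS were those of 1574 (-0.53 ± 0.10, adjusted p = 0.052), LOC543421 (-0.72 ± 0.15, adjusted p = 0.063) and 8063 (1.67 ± 0.36, adjusted p = 0.073). Probe 1574 was near the floor in CS, where a fall could not be measured, so its difference is little more than its response in 3R. LOC543421 averaged 6.53 in CS and 6.54 in 6R, little above 6.3, so a fall like that in 3R could be compressed in both. Against 6R the differences of smallest p were those of LOC543421 (-0.68 ± 0.15, adjusted p = 0.10), 4418 (-0.68 ± 0.16, adjusted p = 0.12) and 34997 (1.48 ± 0.35, adjusted p = 0.13). Without 3R replicate 2, 2 members passed against CS and 3 against 6R, among them 34997 (2.05, adjusted p = 0.0035). Over all 45220 rows 383 and 236 passed there. Without 6R replicate 1 or 6R replicate 2, 1 member passed against CS, with 700 and 826 passing over all rows.

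Levels of the 26 probes were compared between 6R and CS, the lines that served as the reference, with the array as a random block in limma. The rule bounds this difference, since both lines must lie below 3R. In control samples 0 of 26 passed (0.0531% of all rows did, and 3 of 26 had an unadjusted p under 0.05, or 11.5% against 5.86% of all rows), and in Al samples 0 of 26 (0.405% of all rows, with 1 of 26 unadjusted, or 3.85% against 7.03%). Replicates 1 and 2 of CS and of 6R were on different slides, so for them slide and line cannot be told apart. With the slide as a further term, added after seeing the data, 0 of 26 passed in both conditions. The smallest p in control samples was that of 12133, which was near the floor in CS (6.00 to 6.16), averaged 6.60 in 6R and 7.30 to 8.09 in 3R. Its difference between 6R and CS was 0.63 ± 0.23 (adjusted p = 0.72). Next came 42878 at 0.87 ± 0.37 (adjusted p = 0.80) and 6845 at 0.74 ± 0.33 (adjusted p = 0.82). On slide 3 alone these differences were 0.90, 0.22 and 0.15. In Al samples 8063 was 0.89 ± 0.38 higher in 6R than in CS (adjusted p = 0.65, and 1.44 on slide 3), 35232 stood at 0.38 ± 0.18 (adjusted p = 0.73, and 0.36 on slide 3) and 12133 at 0.46 ± 0.23 (adjusted p = 0.78, and 0.28 on slide 3). The difference of 6845 in Al samples was -0.23 ± 0.33 in the fit and -1.03 on slide 3.

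The rule was also applied within each condition, 3 samples of 3R against 6. In control samples alone 51 probes met it, 22 of them members, and in Al samples alone 408 met it, 23 of them members. The members that missed it in a single condition did so by the margin, since separation in all samples implies separation in each condition.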

How the data were processed

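Signal was measured on 9 arrays hybridised with 2 dyes, and each channel was deposited as a sample (18 in all), per the labels. The deposited values are log2 intensities for 45220 rows. The submitters' processing notes name limma, and how background was corrected and signals were normalised is not given in the sources used here. The sorted deposited values of samples of the same line differ by at most 0.0064, those of different lines by up to 0.355, so they look quantile normalised within each line. The number of arrays, 3 per line, limits the precision. Replicates correlated at 0.941 to 0.980.

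All values were quantile normalised across the 18 samples with limma 3.58.1 in R 4.3.3, and the rule was applied to them. The Al response was fitted on within-array log2 ratios with a mean per line and a dye term (5 residual degrees of freedom, prior 2.61), and levels of 6R and CS on single channels with a random effect of the array (consensus correlation 0.625). Benjamini-Hochberg adjustment ran over all rows, and no row was filtered, since control spots are not marked. Al and control samples are paired because they shared an array, and their residuals correlated at 0.722 to 0.850 across the 9 arrays. P-values measure the spread between these samples. The platform annotation gives 996 rows a single symbol each and the others none, and 547 of 553 symbols were found in the gene table, 72 through a synonym. For 6R, replicates 1 and 2 are exchanged in the scanner file names, and the titles were followed.

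Probes named are all members with a symbol, the members of largest and smallest margin, those just outside the threshold, called members with the same sign in 3 of 3 arrays, the members of smallest p where none passed, and others where a count or a level singles them out, chosen after their values were seen. Gene lists fixed by topic (transport, cell wall, oxidative stress, pathogenesis, benzoxazinoid, dehydrin, chaperone, translation and mobile element genes) could not be counted among the members, since 24 have no symbol and the other 2 no stated function. The members and lists were chosen with earlier results of these data known. Alternatives were another scaling, a filter on dim rows, other model terms, other margins and leaving out arrays.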

Additional observations from a re-analysis of the deposited data

Results flagged for a closer look

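In 2 members every array of 3R moved one way with Al and every array of CS the other way. The share of all rows that do so is not given here, so the count of 2 is a description. Probe 8063 had ratios of 0.75, 0.36 and 0.11 in 3R and -1.01, -1.22 and -1.57 in CS, a difference of 1.67 ± 0.36 (moderated SE, 3 arrays per line, limma adjusted p = 0.073, 0.017 to 0.49 under the alternatives). On the slide shared by all lines the difference was 1.68. Probe 4418 had ratios of -0.57, -0.27 and -0.40 in 3R and 0.18, 0.41 and 0.29 in CS, a difference of -0.71 ± 0.16 (adjusted p = 0.084), and -0.70 on the shared slide. Neither difference passed the threshold in the fit over all arrays. Probe 4418 passed without 6R replicate 1, and 8063 without 6R replicate 2 and with dim rows left out.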

How the results depend on the processing

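The number of probes meeting the rule, 26, was 12 on the values as deposited, 61 with a margin of 0.5, 2 with a margin of 2, 51 in control samples alone, 408 in Al samples alone, and 27 to 62 when an array was left out (45, 62 and 45 without 3R replicate 1, 2 or 3). With fewer samples the rule is easier to meet. The median difference of the members' level in 3R from CS, 1.5, was 1.21 as deposited, and that from 6R, 1.34, was 1.60 on slide 3 alone. Members called for Al in 3R, CS and 6R, 6 each, were 1, 3 and 3 without the dye term, 1, 3 and 1 with a slide block added, 0, 1 and 2 without the slide 3 arrays, and 11 in 3R with the 3R arrays alone. The last 2 settings were chosen after seeing the data. With no replicate block, that is without pairing by array, the members called were 1, 0 and 1. Calls over all rows moved too, from 6672, 10279 and 12227 in 3R, CS and 6R. They were 1659, 3863 and 4447 without the dye term, and 2017, 6645 and 6205 with the slide block. Without the slide 3 arrays they were 2414, 5736 and 9041, with the 3R arrays alone 11204, and with no replicate block 748, 2372 and 2731. Leaving out an array gave 2 to 8 members called in 3R, 1 to 6 in CS and 4 to 9 in 6R. These counts need not hold the same members. The 4 called in 3R without 3R replicate 2 included none of the 6 of the main fit. Over all rows leaving out an array gave 1883 to 8143, 6700 to 11094 and 6393 to 13128. Differences of responses, 0 called, gave 1 for 3R minus CS (8063) and 1 for 3R minus 6R (34997) with dim rows left out, and 0 to 2 and 0 to 3 when an array was left out. Over all rows 832 and 487 were called in the main fit, and 1046 and 642 with dim rows left out. When an array was left out these were 279 to 1048 and 89 to 614. Levels of 6R against CS gave 0 under every alternative run, among them a slide term added after seeing the data. For slide 3 alone that comparison has 1 array per line and no test. The responses and differences picked by the naming rule kept their direction under the alternatives run, 342 values in all. The responses were picked for the same sign in 3 of 3 arrays, so a reversal was hardly possible. Of the 342 values, 82 lost and 4 gained the call. The differences were not called in the main fit, so all 82 losses fell among the responses, which are only part of the 342 values. Replicates 1 and 2 of CS have slide 2 to themselves.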

Other observations

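Some members had Al responses that differed in sign or size between lines without passing. Probe 42878, among the brighter members, changed by 0.74 ± 0.24 in 3R, 0.46 ± 0.24 in CS and -0.33 ± 0.24 in 6R (limma, adjusted p = 0.088, 0.25 and 0.43). Probe 29913 changed by -0.66 ± 0.21 in 3R (adjusted p = 0.088, down in 3 of 3 arrays), 0.03 ± 0.21 in CS and 0.03 ± 0.21 in 6R. Probe 35232, near the floor in CS and averaging 6.31 in 6R, changed by -0.37 ± 0.15 in 3R and 0.43 ± 0.15 in 6R (adjusted p = 0.15 and 0.066), the latter up in 3 of 3 arrays.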
